A study of Rattus norvegicus with 17 samples.

Results

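Chromatin immunoprecipitation with sequencing (ChIP-seq) had mapped 3 histone marks in rat oligodendrocyte precursor cells (OPC), and the places where those marks lie together or apart are described here. The peaks of H3K27Ac, H3K4me3 and H3K9me3 in OPC were taken from their lists whole, without any choice by measured value. They numbered 34037 of the 189320 peaks in the 17 libraries of the study, with 19130 for H3K27Ac, 11758 for H3K4me3 and 3149 for H3K9me3. The OPC were primary cells from the cortices of wild-type Sprague-Dawley pups at postnatal day 2, labelled as mitogen treated and grown with PDGF-AA at 10 ng/ml and bFGF at 20 ng/ml. The other stages, iOL and mOL, came from the same wild-type strain and carry a T3 treatment label. Their differentiation medium held T3 at 15 nM and ciliary neurotrophic factor at 10 ng/ml, and their lists are used only to follow OPC peaks. The growth protocol calls the isolated cells iOLs, whereas the sample labels call the mitogen-treated ones OPC, and the sample labels were followed. Lists of the polymerase RNAPII, of Brg1, the ATPase of the SWI/SNF chromatin remodelling complex, and of Olig2, a basic helix-loop-helix factor of the oligodendrocyte lineage, served as readouts that did not enter the grouping of peaks. Each mark had 1 library, so no difference could be tested over samples, and the 95% intervals given with shares (exact Clopper-Pearson) and medians cover only the counting error of peaks. Neighbouring peaks are not independent, so these intervals are too narrow.

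Acetylation of lysine 27 of histone H3 marks active promoters and active enhancers. Trimethylation of lysine 4 is concentrated at the starts of active or poised genes, so H3K27Ac without H3K4me3 is commonly read as enhancer-like and the 2 marks together as promoter-like. Trimethylation of lysine 9 is known from heterochromatin and silenced repeats. These readings are background, since the lists are on rat build rn4 and no gene annotation of that build was used here. The labelled cell type was likewise not checked against genes. The labels give Abcam ab8896 as the H3K9me3 antibody, a catalogue number known from work on monomethylated lysine 9, and the list is called here by its label. The effect of that antibody on the list was not tested.

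The lists differed in length as well as in number. H3K27Ac covered 17.9 Mb, H3K4me3 11.3 Mb and H3K9me3 3.85 Mb, which is 0.642%, 0.406% and 0.138% of the 2792 Mb of chromosome sequence up to the last peak. The median width was 745 bp for H3K27Ac, 835 bp for H3K4me3 and 1056 bp for H3K9me3. The numbers of reads behind the lists are unknown, so a longer list cannot be told apart from a deeper library or a looser threshold.

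H3K27Ac and H3K4me3 lay on the same places far more often than lists of their size and width would by position alone. Of the H3K4me3 peaks, 8703 of 11758 (74.0%, 95% interval 73.2 to 74.8) shared at least 1 bp with an H3K27Ac peak. Of the H3K27Ac peaks, 9031 of 19130 (47.2%, 46.5 to 47.9) shared at least 1 bp with an H3K4me3 peak. As the chance value, 1 list was moved along each chromosome, with its end joined to its start, through every possible offset, and the shares were averaged. That average was 1.30% for H3K4me3 peaks and 0.814% for H3K27Ac peaks, so the observed H3K27Ac share was 58.0 times its chance value. Offsets of at most 1 Mb, which keep each peak in its own gene-rich or gene-poor neighbourhood, gave 2.34% and 1.47%, and the ratio for H3K27Ac was then 32.1. In bases, the 2 marks shared 7.25 Mb in 9430 stretches with a median length of 669 bp, against a mean of 80930 bp over all offsets. The shared bases made up 63.9% of the sequence under H3K4me3 and 40.4% of that under H3K27Ac.

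H3K9me3 lay almost wholly apart from both marks. Only 29 of its 3149 peaks (0.921%, 0.618 to 1.32) shared a base with H3K27Ac or H3K4me3, against 1.62%, or 51.1 peaks, as the mean over all offsets. The ratio of observed to chance was 0.568, and it was 0.473 against offsets of at most 1 Mb. H3K27Ac was met by 20 H3K9me3 peaks (0.635%, against 1.38% by chance) and H3K4me3 by 13 (0.413%, against 0.872%). The chance values lay above the upper bound of the observed interval in each of these 3 comparisons. Those intervals are too narrow, and no spread over the offsets was computed. With the wider 50% of each list the ratio for either mark was 0.459 (0.210 to 0.869). With the middle 200 bp of each peak it was 0.579 (0.233 to 1.19), an interval that holds 1. Seen from the active side, 0.105% of H3K27Ac peaks and 0.111% of H3K4me3 peaks met H3K9me3. The H3K9me3 peaks shared 18152 bp with either active mark, against a mean of 32225 bp.

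**Figure D1:**
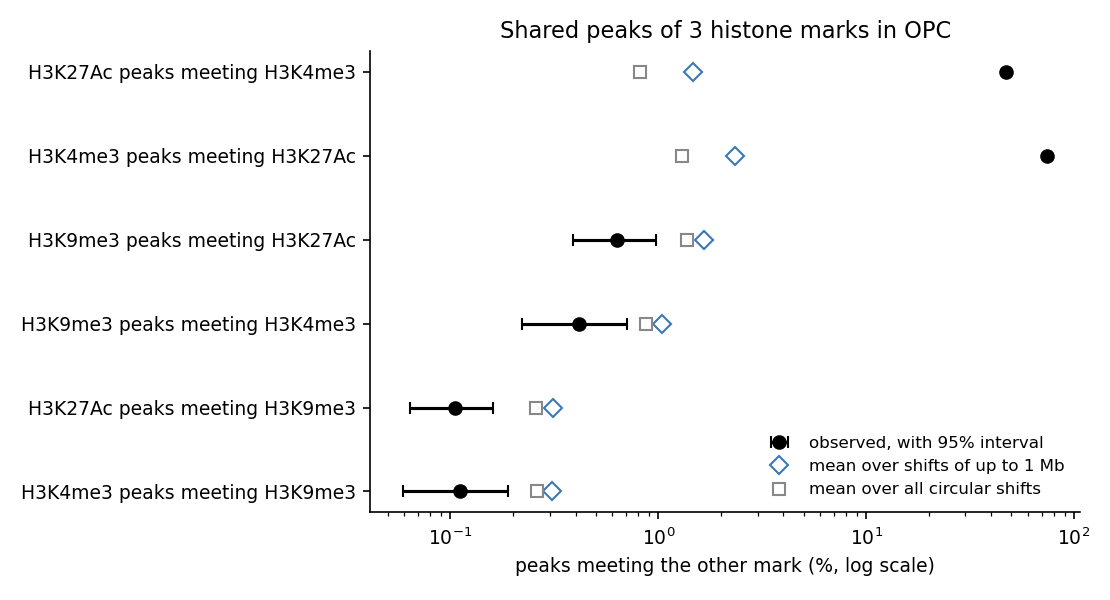
Percent of the peaks of 1 mark that share at least 1 bp with another mark in OPC (log scale). Black points are observed shares with exact 95% intervals, open diamonds the mean over offsets of at most 1 Mb and open squares the mean over all offsets. The 47.2% and 74.0% of the upper 2 rows stand far right of their open markers, and the 4 rows with H3K9me3 stand left of theirs.

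Of the 25.9 Mb under any of the marks, H3K27Ac with H3K4me3 took 28.0%, H3K27Ac alone 41.2%, H3K4me3 alone 15.8% and H3K9me3 alone 14.8%. H3K9me3 with H3K27Ac took 0.0354%, H3K9me3 with H3K4me3 0.0169% and all 3 together 0.0180%. Sorted by peaks, 9026 H3K27Ac peaks met H3K4me3 and not H3K9me3, 10084 (52.7%) met neither and are called H3K27Ac alone, 15 met H3K9me3 only and 5 met both. Of the H3K4me3 peaks, 8698 met H3K27Ac and not H3K9me3, 3047 (25.9%) were alone, 8 met H3K9me3 only and 5 met both. Of the H3K9me3 peaks, 16 met H3K27Ac only, 9 met H3K4me3 only, 4 met both and 3120 (99.1%) were alone.

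All 3 marks shared bases in 4 places, with 4647 bp in all. On chromosome 1 the place was chr1:185709429-185711318 (rn4, 1890 bp), the whole of an H3K9me3 peak that lay inside an H3K27Ac peak of 3032 bp and an H3K4me3 peak of 3562 bp. Chromosome 4 held 2 of the places, chr4:75838264-75839180 (917 bp) and chr4:75900983-75902206 (1224 bp), which stood 61.8 kb apart. The place on chromosome X was chrX:86941997-86942612, the first 616 bp of an H3K9me3 peak of 916 bp. None of the 4 H3K9me3 peaks met Olig2, Brg1 or RNAPII in OPC. None of them met H3K9me3 in iOL or mOL either, while all 4 met H3K27Ac in iOL and in mOL and H3K4me3 in mOL. Of all H3K9me3 peaks, 34.4% met H3K9me3 in mOL and 6.95% in iOL, and 2.25% met Olig2 of OPC. Absence at 4 peaks thus says little. Of H3K27Ac peaks with H3K4me3, 96.9% met H3K27Ac in mOL.

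Most of the 29 H3K9me3 peaks that met an active mark were covered by it in part. The overlap had a median of 490 bp and ran from 35 to 2220 bp, and the median share of the H3K9me3 peak covered was 42.9%. Active marks covered 19 of the 29 over less than 50% of their width and 4 over more than 90%. The longest overlap, 2220 bp, was with H3K27Ac at chr9:8240575-8242839, where the nearest H3K4me3 peak was 269027 bp away. The other 2 of the 3 longest were the chromosome 1 place above and the chr4:75900950-75903866 peak with 1244 bp. Olig2 of OPC met 2.25% of all H3K9me3 peaks. It was called at 7 of the 16 peaks that met H3K27Ac only, at none of the 9 that met H3K4me3 only and at none of the 4 with both. Among the active peaks themselves, Olig2 met 51.8% of H3K27Ac alone, 3.18% of H3K4me3 alone and 5.86% of H3K27Ac with H3K4me3. The Olig2 counts thus ran in the order of the active classes that these H3K9me3 peaks met. H3K9me3 was called again at either later stage in 7 of the 16, 4 of the 9 and 0 of the 4. In mOL, H3K9me3 was called again at 37.9% of the 29, against 34.4% of all 3149, so these small counts do not set the classes apart.

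Peak width separated shared from lone H3K4me3 peaks and hardly separated H3K27Ac peaks. H3K4me3 peaks with H3K27Ac had a median width of 922 bp (912 to 935), against 646 bp (637 to 657) for those alone. Widths of 2 kb or more occurred in 492 (5.66%) of the shared H3K4me3 peaks and in 6 (0.197%) of the lone ones. H3K27Ac peaks with H3K4me3 had a median of 772 bp (762 to 781) and those alone 715 bp (706 to 724), but widths of 2 kb or more were found in 5.03% of the shared and 6.25% of the lone peaks. When a gap of up to 1 kb counted as meeting, the order of the H3K27Ac medians turned round, with 734 bp for the shared and 762 bp for the lone peaks. The 9 H3K9me3 peaks with H3K4me3 only had a median of 850 bp, the 16 with H3K27Ac only 1000 bp, the 4 with both 1430 bp, and the 3120 alone 1057 bp.

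With each list cut into 5 equal groups by width, the share of H3K4me3 peaks that met H3K27Ac went up at every step from narrow to wide, through 52.1, 63.1, 75.1, 85.4 and 94.4%. The chance value was 1.02% for the narrowest and 1.72% for the widest group. The share of H3K27Ac peaks that met H3K4me3 had no such order, with 39.9, 44.8, 53.6, 53.1 and 44.7%. The lowest of these shares was that of the narrowest group, and the widest group and the second narrowest differed by less than their intervals.

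**Figure D2:**
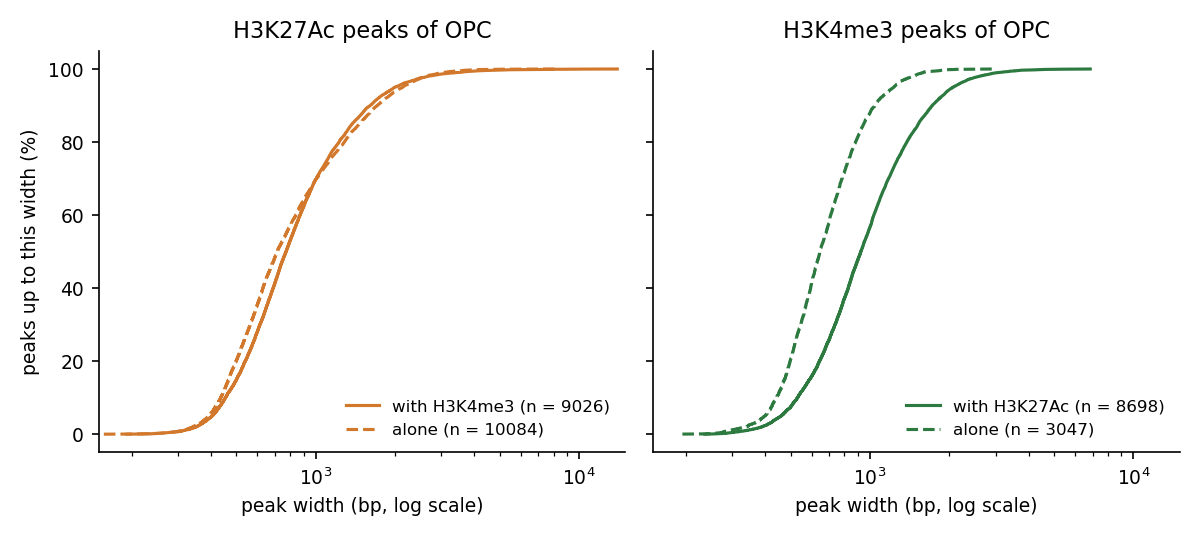
Percent of peaks up to a given width (bp, log scale) for H3K27Ac peaks on the left and H3K4me3 peaks on the right, with solid lines for peaks that meet the other active mark and dashed lines for peaks alone. The H3K4me3 curves stand apart (medians 922 and 646 bp), and the H3K27Ac curves cross.

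The 3 widest H3K27Ac peaks with H3K4me3 were chr2:12272087-12286058 (13972 bp, with 10628 bp under 3 H3K4me3 peaks), chr2:120971358-120984835 (13478 bp, with 7993 bp under 5) and chr2:79684567-79695031 (10465 bp, with 3517 bp under 1). All 3 kept both marks in iOL and mOL. RNAPII of OPC was called at the first, and Olig2 of OPC at the other two. The 3 widest H3K27Ac peaks alone were chr20:43560164-43568328 (8165 bp), chr3:156954837-156962824 (7988 bp) and chr10:92106190-92112148 (5959 bp), with the nearest H3K4me3 at 56331, 149923 and 2506 bp. Each of these 3 met Olig2 in OPC and in iOL and kept H3K27Ac at both later stages. Of all lone H3K27Ac peaks, 51.8% met Olig2 in OPC, 55.6% met it in iOL and 60.9% kept H3K27Ac at both later stages. The 3 widest H3K4me3 peaks alone were chr3:88859278-88862186 (2909 bp), chr8:13281692-13284290 (2599 bp) and chr5:111303275-111305775 (2501 bp), with the nearest H3K27Ac at 40418, 14118 and 2012449 bp. None of these 3 met Olig2, Brg1 or RNAPII in OPC, all kept H3K4me3 at both later stages, and all met H3K27Ac in mOL. Among all lone H3K4me3 peaks, Olig2 met 3.18%, Brg1 none and RNAPII 0.361%. H3K4me3 was kept at both later stages in 60.5% of them, and H3K27Ac of mOL met 63.3%. The 3 widest H3K9me3 peaks alone were chr9:1069279-1076586 (7308 bp), chr17:49584711-49591497 (6787 bp) and chr1:243639788-243645775 (5988 bp). Their nearest active peaks stood 206401, 519038 and 413505 bp away, and none was called as H3K9me3 in iOL or mOL. Of all lone H3K9me3 peaks, 34.4% were called again in mOL and 6.92% in iOL.

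Where the active marks met, H3K27Ac mostly sat within or on H3K4me3. A shared H3K27Ac peak had a median of 97.1% of its width under H3K4me3, and 40.4% of them were covered over the whole width. A shared H3K4me3 peak had a median of 84.7% under H3K27Ac, and 16.9% were covered whole. Among the 7342 pairs in which 1 peak met exactly 1 of the other mark, H3K27Ac lay inside H3K4me3 in 39.9%, H3K4me3 lay inside H3K27Ac in 16.0% and the pair was staggered in 44.1%. The H3K4me3 peak was the wider of the pair in 65.2%, with a median H3K27Ac minus H3K4me3 width of -96.0 bp, and the centres were a median of 88.5 bp apart. An H3K4me3 peak met 2 H3K27Ac peaks in 660 cases, and an H3K27Ac peak met 2 H3K4me3 peaks in 371.

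Close neighbours made up a larger part of both active lists than of the H3K9me3 list. The H3K9me3 list was also the sparsest, with a median gap of 377898 bp, against 24328 bp for H3K27Ac and 47290 bp for H3K4me3. No chance value was computed for short gaps, so the part of list density in this difference was not tested. Of the gaps between neighbouring peaks of the same list, 5061 of 19108 (26.5%) were at most 1 kb for H3K27Ac, 2923 of 11736 (24.9%) for H3K4me3 and 54 of 3128 (1.73%) for H3K9me3. These short gaps had medians of 176 bp for H3K27Ac and 240 bp for H3K4me3. Of the short gaps in H3K4me3, 51.3% (49.5 to 53.1) shared bases with a short gap in H3K27Ac, and 92.0% had H3K27Ac within 1 kb. Of those in H3K27Ac, 29.9% (28.6 to 31.2) shared bases with a short gap in H3K4me3.

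Joining active peaks of either mark across gaps of up to 1 kb gave 15805 stretches. Both marks were present in 6949 (44.0%), H3K27Ac alone in 7046 (44.6%) and H3K4me3 alone in 1810 (11.5%). Their median spans were 1728, 997 and 707 bp. Olig2 of OPC was called in 8.33% of the stretches with both marks, in 59.9% of those with H3K27Ac alone and in 3.98% of those with H3K4me3 alone. For comparison, it met 30.1% of all H3K27Ac peaks and 5.15% of all H3K4me3 peaks. No chance value was computed for the stretches, whose spans differed.

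The 10084 H3K27Ac peaks alone stood a median of 39.0 kb (37.0 to 40.5) from the nearest H3K4me3 peak, edge to edge. The middle 50% ran from 7353 bp to 118 kb, and the upper 10% stood more than 280 kb away. This median depended on the peak calls, with 19722 bp when the middle 200 bp of each peak was used and 61878 bp for the wider 50% of each list. As these peaks share no base with H3K4me3, chance was taken over the offsets at which they shared none. Within 1 kb there were 1421 (14.1%, 13.4 to 14.8), against 0.694% over all such offsets and 1.13% over those of at most 1 Mb. Within 10 kb there were 28.1%, against 6.34% and 10.2%, and within 100 kb 71.5%, against 36.2% and 52.3%. The ratio of observed to chance over all such offsets was 20.3 at 1 kb, 4.44 at 10 kb and 1.97 at 100 kb, while the difference in percentage points grew. The H3K27Ac peaks alone farthest from H3K4me3 were chr3:22298332-22299508 at 3.30 Mb, chr14:50545736-50546629 at 3.17 Mb and chr3:21475986-21477174 at 2.48 Mb. All 3 kept H3K27Ac in iOL and mOL. Those on chromosome 3 also met Olig2 in OPC, and the one on chromosome 14 did not. Among all lone H3K27Ac peaks, 60.9% kept H3K27Ac at both later stages and 51.8% met Olig2 in OPC.

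H3K4me3 peaks alone came in near and far sets. Their median distance to H3K27Ac was 16.9 kb (14.6 to 20.1), but 994 of 3047 (32.6%, against 1.08% and 1.71% by chance) had H3K27Ac within 1 kb. From 1 to 10 kb there were 344, from 10 to 100 kb 1076, and beyond 100 kb 633. The near set was no wider, with medians of 639, 671, 654 and 642 bp from near to far. The H3K27Ac peaks alone within 1 kb of H3K4me3 were narrower, at a median of 563 bp, than those farther away, at 755, 762 and 763 bp.

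**Figure D3:**
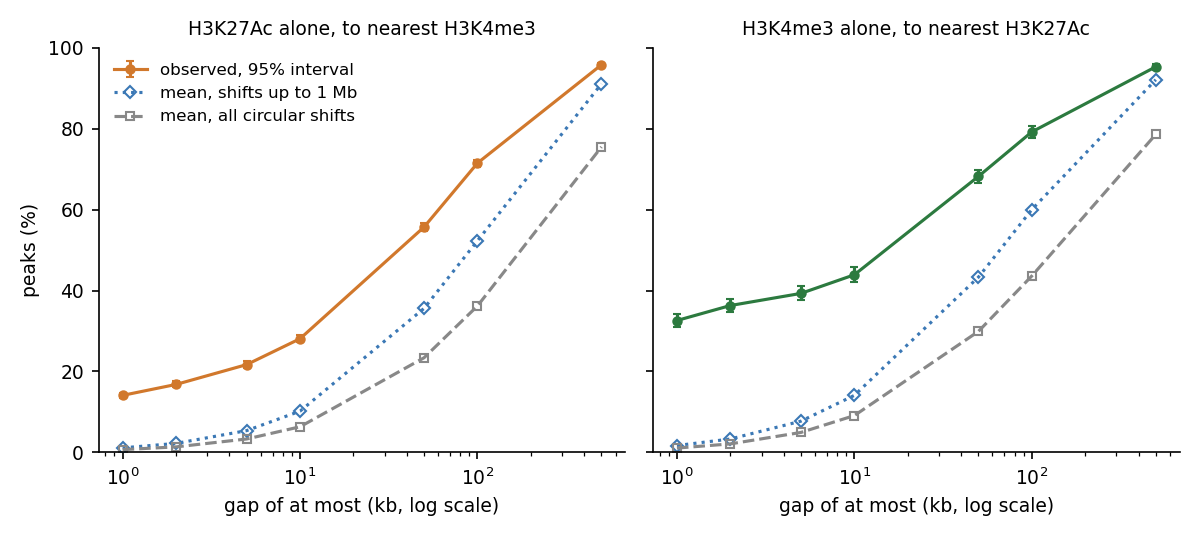
Percent of peaks with the other active mark no farther than the given gap (kb, log scale), for H3K27Ac alone on the left and H3K4me3 alone on the right. Filled points with exact 95% intervals are observed, open diamonds are means over offsets of at most 1 Mb and open squares means over all offsets, both without offsets at which the peaks overlap. Observed shares at 1 kb were 14.1% and 32.6%, above both chance means.

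The Olig2, Brg1 and RNAPII lists, which did not enter the classes, split along the same lines. Of all H3K27Ac peaks, 30.1% met Olig2 of OPC. The share was 5.86% (529 of 9026, 5.39 to 6.37) for H3K27Ac with H3K4me3, against 51.8% (5227 of 10084, 50.9 to 52.8) for H3K27Ac alone, with chance values of 1.91% and 1.90%. Brg1 of OPC met 1.93% of all H3K27Ac peaks, with 0.122% (11 peaks) of those with H3K4me3, against 3.54% (357 peaks) of those alone. Of these 357, Olig2 was also called at 353. RNAPII of OPC met 1.90% of all H3K27Ac peaks and went the other way, with 3.32% (300 peaks) of those with H3K4me3, against 0.625% (63 peaks) of those alone. The Brg1 and RNAPII lists of OPC held 452 and 332 peaks, so low shares for these 2 do not show that the protein was absent.

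Distance to H3K4me3 ordered the lone H3K27Ac peaks in the same direction. Olig2 met 7.95% of those with H3K4me3 at up to 1 kb, 42.8% at 1 to 10 kb, 57.9% at 10 to 100 kb and 68.8% beyond 100 kb. Brg1 met 0.352, 2.40, 3.34 and 5.98% over the same steps, and RNAPII 1.90, 0.777, 0.435 and 0.209%. The lone H3K27Ac peaks within 1 kb of H3K4me3 thus had Olig2 and Brg1 shares nearer to those of the shared peaks than to those of the other lone peaks. Width moved with Olig2 as well. From the narrowest to the widest of 5 equal groups, Olig2 met 3.08, 3.09, 2.88, 4.68 and 16.1% of H3K27Ac peaks with H3K4me3, against 34.8, 41.9, 50.4, 60.1 and 74.6% of those without, so the contrast was present in every group.

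H3K4me3 peaks carried few Olig2 or Brg1 calls in either class. Olig2 met 5.15% of all H3K4me3 peaks, with 5.84% of those with H3K27Ac, against 3.18% of those alone. Brg1 met 0.0850% of all H3K4me3 peaks, with 10 of 8698 among those with H3K27Ac, against 0 of 3047 among those alone. RNAPII met 2.60% of all H3K4me3 peaks, with 3.39% (3.02 to 3.79) of those with H3K27Ac, against 0.361% (0.180 to 0.645) of those alone. Chance values for RNAPII were 0.0292% and 0.0236%. The 2 classes also differed in median width, with 922 and 646 bp, and the part of width in the RNAPII contrast was not tested.

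**Figure D4:**
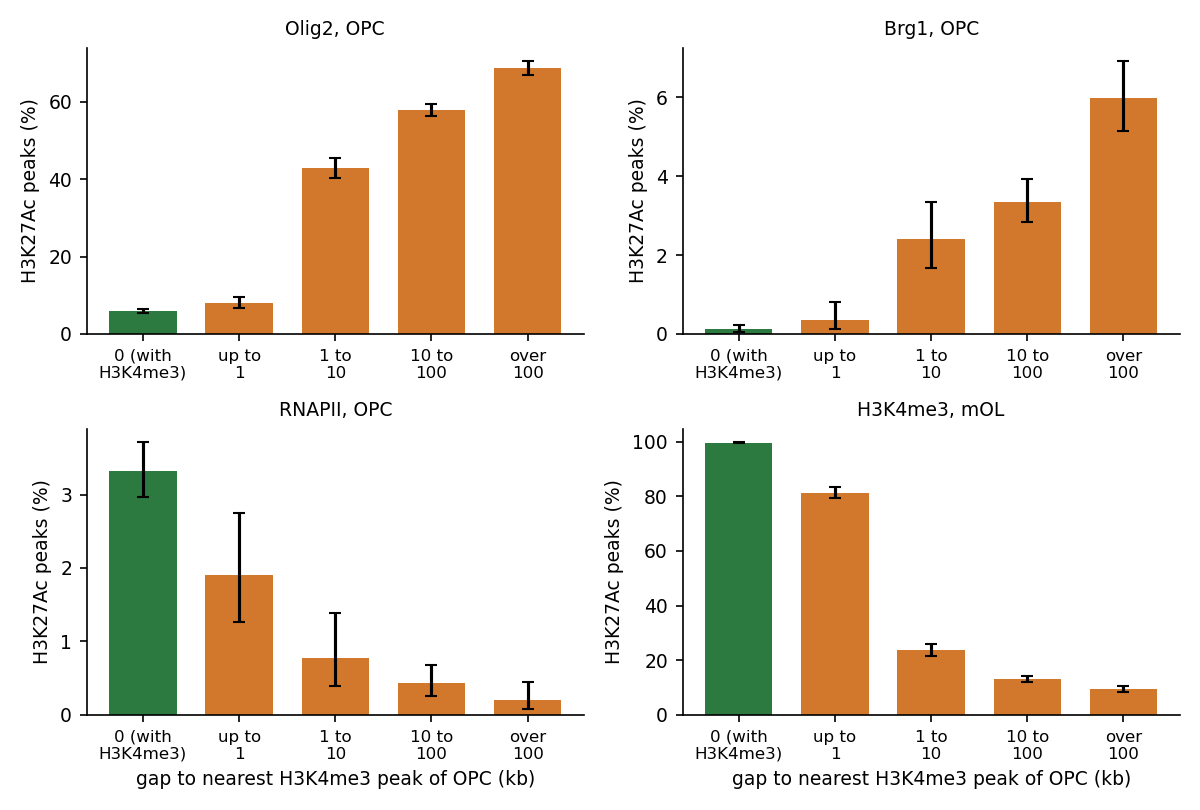
Percent of H3K27Ac peaks of OPC that meet Olig2, Brg1 or RNAPII of OPC or H3K4me3 of mOL, by the gap to the nearest H3K4me3 peak of OPC (kb), with the shared peaks in green and peaks alone in orange. Bars are single-library shares with exact 95% intervals. Olig2 and Brg1 go up with the gap (Olig2 to 68.8%), and RNAPII and H3K4me3 of mOL go down.

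The classes also differed in what was called at the same places in later stages. H3K4me3 of mOL met 59.3% of all H3K27Ac peaks of OPC. It met 99.6% of those with H3K4me3 in OPC, against 23.2% (22.4 to 24.1) of those alone, and by gap the share among those alone was 81.3, 23.6, 13.2 and 9.59%. The mOL list held 17530 H3K4me3 peaks and the OPC list 11758, and the part of list length in these gains was not tested. Among lone H3K27Ac peaks, those with Olig2 met H3K4me3 of mOL in 7.02% (6.34 to 7.75), against 40.6% (39.3 to 42.0) of those without Olig2. This contrast runs together with the gap to H3K4me3 in OPC. The 1421 lone peaks within 1 kb held 1155 of the 2341 that met H3K4me3 of mOL, and 7.95% of the 1421 met Olig2. The contrast within each gap class was not tested. H3K27Ac of mOL met 88.0% of all H3K27Ac peaks of OPC, with 96.9% of those with H3K4me3, against 80.1% of those alone. In iOL the 2 shares were 87.4% and 66.5%. Neither later stage had H3K27Ac at 2.16% of the peaks with H3K4me3, against 14.3% of those alone.

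Many lone H3K4me3 peaks of OPC met H3K27Ac at a later stage, read from longer lists, with 21589 H3K27Ac peaks in iOL and 35268 in mOL, against 19130 in OPC. H3K27Ac of mOL met 88.2% of all H3K4me3 peaks of OPC, with 97.0% of those with H3K27Ac, against 63.3% (61.6 to 65.1) of those alone. H3K27Ac of iOL met 88.2% of those with H3K27Ac, against 33.0% of those alone, and 33.5% of those alone met it at neither later stage. The part of list length in these shares was not tested. By gap to H3K27Ac in OPC, the mOL share of the lone peaks was 74.9% at up to 1 kb, 64.8%, 60.8% and 48.7% beyond 100 kb. H3K4me3 of mOL met 98.6% of all H3K4me3 peaks of OPC, with 99.8% of those with H3K27Ac, against 95.3% of those alone. H3K4me3 of iOL met 90.6% and 60.6%. The iOL list of H3K4me3 was the shorter, with 10467 peaks.

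H3K9me3 peaks stood a median of 67.6 kb (62.7 to 72.5) from the nearest active peak, 81.1 kb from H3K27Ac and 139 kb from H3K4me3. Their scarcity was limited to close range and was clearer for H3K4me3. Within 1 kb, H3K4me3 lay near 0.794% (0.514 to 1.17) of the H3K9me3 peaks, against 1.53% over all offsets and 1.80% over offsets of at most 1 Mb. Within 5 kb it lay near 3.02% (2.45 to 3.68), against 4.02% and 4.70%, and within 50 kb near 26.7%, against 23.3% and 26.6%. H3K27Ac lay within 1 kb of 2.19% (1.71 to 2.76), against 2.41%, which is inside the interval, and 2.88%. Within 10 kb it lay near 13.5% (12.3 to 14.7), against 10.1% and 12.0%, which is above both means. H3K9me3 thus shared bases with both marks less often than by chance, and had H3K27Ac within 10 kb more often.

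From the active side the same split appeared between H3K27Ac with and without H3K4me3. H3K9me3 lay within 1 kb of 6 (0.0665%, 0.0244 to 0.145) of the 9026 H3K27Ac peaks with H3K4me3, against 47 (0.466%, 0.343 to 0.619) of the 10084 alone. Neither class holds a peak that shares a base with H3K9me3, and over offsets that share none the chance value was 0.236% for each. Such offsets of at most 1 Mb gave 0.277% with H3K4me3 and 0.289% alone. Against these values the share at 1 kb was lower for the peaks with H3K4me3 and higher for those alone. Over all offsets that share none, the ratio for those alone was 1.97. With overlapping offsets counted as well, chance for the lone peaks was 0.491%, or 0.601% for offsets of at most 1 Mb. Both lie inside their interval, so the excess at 1 kb depends on leaving overlapping offsets out. Within 10 kb the shares were 2.04% (1.76 to 2.35) with H3K4me3, against 4.24% (3.86 to 4.66) alone. Chance over offsets that share none was 2.24% and 2.23%, and with those of at most 1 Mb 2.66% and 2.80%. With overlapping offsets counted, chance for the lone peaks was 2.48% and 3.10%, still below their interval. Lone H3K4me3 peaks had H3K9me3 within 10 kb in 2.36% (1.85 to 2.97), against 2.20% and 2.57% by chance. The excess of H3K27Ac within 10 kb of H3K9me3 was thus found among acetylated peaks without H3K4me3.

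**Figure D5:**
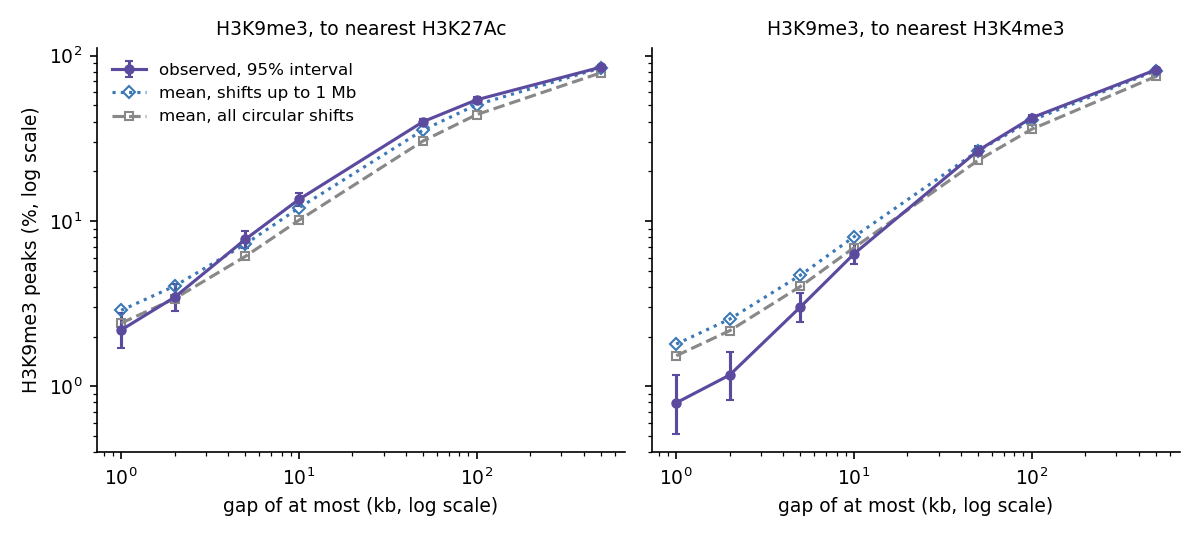
Percent of H3K9me3 peaks of OPC with H3K27Ac (left) or H3K4me3 (right) no farther than the given gap (both axes log scale, gap in kb). Filled points with exact 95% intervals are observed, open diamonds are means over offsets of at most 1 Mb and open squares means over all offsets. H3K4me3 falls short of both means at 1, 2 and 5 kb (0.794% at 1 kb), and H3K27Ac exceeds both at 10 kb (13.5%).

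The 3120 H3K9me3 peaks alone met few peaks of the factor lists. Olig2 of OPC met 2.05% of them, against 2.10% by chance, and Brg1 of OPC met 1 peak. Other lists stood above chance at low counts, with RNAPII of OPC at 6 peaks (0.192%, against 0.0292%), RNAPII of iOL at 14 (0.449%, against 0.128%) and Olig2 of mOL at 40 (1.28%, against 0.207%). Olig2 of OPC met 11 of the 53 with an active mark at up to 1 kb (20.8%, 10.8 to 34.1), against 1.53% at 1 to 10 kb. Those 53 are defined by a nearby active peak, and Olig2 met 51.8% of H3K27Ac peaks alone. The part of the neighbouring active peaks in the 20.8% was not tested. H3K9me3 was called again in mOL at 34.4% (32.7 to 36.1) of the lone peaks and in iOL at 6.92%, and the iOL list held only 827 peaks. By gap to an active mark, the mOL share was 26.4% at up to 1 kb, 38.7% at 1 to 10 kb, 39.2% at 10 to 100 kb and 28.4% beyond 100 kb. H3K27Ac of mOL met 1.94% (1.48 to 2.48) of all 3149 H3K9me3 peaks of OPC, against 2.70% by chance.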

How the data were processed

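Each deposited file gives peak positions only (chromosome, first base, last base), in 3 columns with no score. The submitters' processing notes name MACS 1.4.0 and build rn4. Which aligner, threshold, control library, filters and pooling were used is not stated in the sources used here, and read depth is unknown. Starts were made 1-based by adding 1. Overlap meant at least 1 bp, and distances ran edge to edge. Chance values are exact means over every circular shift along each chromosome, or over shifts of at most 1 Mb, with the largest peak end over 17 lists as chromosome length. For distances of classes without overlap, shifts with overlap were left out, a choice made after seeing the data. Chance values ignore unsequenced and unmappable stretches. No test was made, as each mark had 1 library. Regions named were, on placed chromosomes, the 3 widest of each class, the 3 H3K27Ac peaks alone farthest from H3K4me3, the 3 H3K9me3 peaks with the longest active overlap, and every 3-mark place. Members, lists and rules were chosen with earlier results of these data known; distance classes, width groups and joined stretches were added after seeing the data. Planted overlaps of 0, 20.0 and 60.0% were recovered in simulated lists of 19130 peaks, and bedtools 2.31.1 gave equal counts for 6 pairs. Python 3.11.15, numpy 2.4.6, scipy 1.17.1 and matplotlib 3.10.9 were used.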

Additional observations from a re-analysis of the deposited data

How the results depend on the processing

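Of 84 recomputed values of 15 results, 41 stayed within the error of the reported value and 43 moved. Only the ratios to chance could be marked as reversed, by crossing 1, and none was. The order of the H3K27Ac median widths turned round with a gap of up to 1000 bp. Leaving out unplaced sequence or merging peaks moved only the shared bases (7215356 bp without unplaced sequence). Each list of values here runs over the share of H3K27Ac peaks with H3K4me3, of H3K4me3 peaks with H3K27Ac and of H3K9me3 peaks with either. Asking for 50% of the shorter peak gave 46.2, 73.1 and 0.603%. The chance value still counted overlaps of 1 bp, so the ratios of 56.7 for H3K27Ac and 0.372 for H3K9me3 are lowered by that mismatch. A gap of up to 1000 bp gave 54.6, 82.5 and 2.60%, with ratios of 36.2 for H3K27Ac and 0.939 (0.749 to 1.16) for H3K9me3. The latter interval holds 1. Medians were then 734 and 762 bp for H3K27Ac with and without H3K4me3 and 885 bp for H3K4me3 with H3K27Ac. Under that gap, 12 H3K9me3 peaks had both other marks within 1000 bp, which counts peaks and not places shared by 3 marks. The wider 50% of each list gave 39.4, 63.0 and 0.572%, 2 places, 4292249 shared bp and a ratio of 65.8 for H3K27Ac. Median widths with and without the other mark were then 1127 and 1110 bp for H3K27Ac and 1255 and 1024 bp for H3K4me3, and median distances 61878 bp from lone H3K27Ac to H3K4me3 and 98268 bp from H3K9me3 to active marks. Olig2 met 6.49% of H3K27Ac with H3K4me3, against 48.7% alone. The middle 200 bp of each peak gave 32.8, 53.3 and 0.222%, 1 place, 769421 shared bp, a ratio of 175, full widths of 747 and 743 bp for H3K27Ac and 860 and 795 bp for H3K4me3, a distance of 19722 bp and Olig2 at 1.45%, against 18.5%. Offsets of at most 1 Mb gave a ratio of 32.1. The cause of these moves was not tested. No paired analysis was possible because each mark has 1 library, and for the same reason no library could be left out.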

Other observations

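By chromosome, the share of H3K4me3 peaks with H3K27Ac was 63.6% (58.3 to 68.7) on chromosome X, against 68.0 to 77.4% on the autosomes, of which chromosome 11 was the lowest. The share of H3K27Ac peaks with H3K4me3 stood the other way, with 53.3% (48.4 to 58.1) on chromosome X, against 42.2 to 51.5% on the autosomes. Chromosome X also had the lowest density among the placed chromosomes of H3K27Ac (2.65 peaks per Mb), H3K4me3 (2.15) and H3K9me3 (0.703). Chromosome 10 had the highest densities of both active marks, with 13.4 H3K27Ac and 8.67 H3K4me3 peaks per Mb, and chromosome 12 the highest of H3K9me3, with 1.69. Unplaced sequence held 74 H3K27Ac, 65 H3K4me3 and 0 H3K9me3 peaks.

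At the scale of 1 Mb the 3 marks were not separated. Over 2708 bins, the rank correlation of peak numbers was 0.859 for H3K27Ac with H3K4me3, 0.348 for H3K27Ac with H3K9me3 and 0.276 for H3K4me3 with H3K9me3. These are descriptions over bins that share mappability and base composition. In 5 equal groups of bins from few to many H3K27Ac peaks, H3K9me3 had 0.792 peaks per Mb in the lowest group and 1.62 in the highest, with the groups between in order. The 500 bins (18.5%) without either active mark held 12.2% of the H3K9me3 peaks. H3K9me3 was thus sparser in bins without active marks and denser in bins rich in them, while within 1 kb it met them less often than its chance value for H3K4me3.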
